A study of Mus musculus with 12 samples.

Results

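The ABC (ATP-binding cassette) genes are a superfamily named for the domain that binds and splits ATP. Members were taken as every gene whose symbol is Abc, a subfamily letter from a to g and a number, with or without a closing a or b. The rule found 45 genes among the 16942 in the table. Subfamily A held 13 of them, B and C held 9 each, G held 6, D held 4, F held 3 and E held 1. The rule reads names only and uses no measured value. Family members under other symbols (Cftr, Tap1, Tap2) are given beside them.

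RNA was sequenced from small intestine of mice of the ICR strain, an outbred stock, in 4 groups of 3 libraries. AOS0 had no busulfan and AOS at 0, AOS10 had no busulfan and AOS at 10, B+A0 had busulfan with AOS at 0, and B+A10 had busulfan with AOS at 10. Busulfan is a DNA-alkylating drug used to deplete bone marrow and germ cells. The labels do not spell out AOS or its unit, and the sources used here give neither age and sex nor the busulfan dose, route, time or stretch of intestine. Nothing states that libraries of a group are different mice. Each p-value is therefore relative to the spread of these samples, which may be technical. Libraries held 13560232 to 16818245 counts, of which 0.175% to 0.221% fell on the 45 genes.

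Most ABC proteins use ATP to move a substrate across a membrane. In the gut, pumps on the lumen-facing membrane of enterocytes return drugs, toxins and plant sterols to the lumen, while others face the blood or sit in mitochondria, peroxisomes or lysosomes. Subfamilies E and F have the ATP-binding domains but no membrane-spanning part, and act at the ribosome. Several members are targets of nuclear receptors: the sterol pair Abcg5 and Abcg8 of the liver X receptors, and the drug pump Abcb1a of the pregnane X receptor.

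The labelled tissue was checked against marker genes. Summed over 10 enterocyte markers (Vil1, Epcam, Sis, Fabp2 and others) the libraries held 11640 to 22712 CPM (counts relative to library size, scaled by TMM). Markers of smooth muscle (Acta2, Myh11, Tagln, Des) summed to 0 to 3.18 CPM, and those of endothelium to 0.245 to 1.55 CPM. The libraries thus held epithelial transcripts and next to none of these muscle and vessel markers. B+A0 replicate 1 stood apart from its group. Its enterocyte markers summed to 20790 CPM, where B+A0 replicates 2 and 3 had 11640 and 11905 and the AOS0 libraries had 15777 to 18224. On the first principal component of all genes (28.4% of the variance) it lay at 6.25, where the other two lay at 25.9 and 38.7. The B+A10 libraries also differed among themselves. On the same component B+A10 replicate 2 lay at -11.6, beside the AOS10 libraries, where B+A10 replicates 1 and 3 lay at 13.8 and 10.5. Without B+A10 replicate 3, 6.10% of all tested genes were called between B+A10 and AOS0 (adjusted p under 0.05, edgeR), against 0.957% with it. Results with and without B+A0 replicate 1 are given for Abcg5, Abcg8 and Abcg2 and for the counts of members called, but not for every gene.

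Sequences around the start are shown for Abcg5 and Abcg8, which have listed starts head to head on chromosome 17. They are also shown for the called genes that have an entry in the promoter table. Each is 1 strand of 300 bases from RefSeq GRCm38.p6, read 5′ to 3′ in the direction of the gene, from 250 bases before the listed start to 50 after. Capitals mark matches on either strand: TATAAA is the TATA box, GATAAG is a motif of GATA factors, CCAAT is a common promoter box, and the GC box is searched as GGGCGG. The motifs share no letters with each other in these windows. Abcg5 is chr17:84682962-84683261, minus strand, and Abcg8 is chr17:84682871-84683170, plus strand, the latter being 1 of 2 entries for that gene. This Abcg8 entry was picked because it overlaps the Abcg5 window. As a whole gene Abcg8 is listed from 84676302 to 84700333, so its listed extent begins inside Abcg5 (84658174 to 84683011).
Abcg5: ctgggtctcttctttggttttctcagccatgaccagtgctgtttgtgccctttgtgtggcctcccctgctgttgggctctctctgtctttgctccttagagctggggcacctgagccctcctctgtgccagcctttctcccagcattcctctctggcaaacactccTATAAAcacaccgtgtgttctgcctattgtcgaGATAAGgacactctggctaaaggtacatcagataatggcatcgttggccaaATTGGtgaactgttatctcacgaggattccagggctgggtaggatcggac
Abcg8: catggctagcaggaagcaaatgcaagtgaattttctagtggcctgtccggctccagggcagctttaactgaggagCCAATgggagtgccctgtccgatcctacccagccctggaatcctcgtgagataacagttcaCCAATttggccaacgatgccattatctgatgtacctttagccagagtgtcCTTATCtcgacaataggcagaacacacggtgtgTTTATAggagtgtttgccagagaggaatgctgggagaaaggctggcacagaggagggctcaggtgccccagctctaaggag
Abcb1a is chr5:8566841-8567140, plus strand. Abcf2 is chr5:24577418-24577717, minus strand, and is 1 of 2 entries. Abcb9 is chr5:124095749-124096048, minus strand. Its start in this entry, 124095798, lies inside the gene as positioned below (124061857 to 124095955). Part of the Abcb9 window before that start is therefore within the gene.
Abcb1a: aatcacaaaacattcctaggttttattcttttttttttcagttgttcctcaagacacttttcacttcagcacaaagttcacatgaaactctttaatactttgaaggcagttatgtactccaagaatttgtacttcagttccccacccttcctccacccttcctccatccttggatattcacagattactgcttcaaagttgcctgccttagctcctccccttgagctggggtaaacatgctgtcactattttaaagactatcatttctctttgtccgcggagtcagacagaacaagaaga
Abcf2: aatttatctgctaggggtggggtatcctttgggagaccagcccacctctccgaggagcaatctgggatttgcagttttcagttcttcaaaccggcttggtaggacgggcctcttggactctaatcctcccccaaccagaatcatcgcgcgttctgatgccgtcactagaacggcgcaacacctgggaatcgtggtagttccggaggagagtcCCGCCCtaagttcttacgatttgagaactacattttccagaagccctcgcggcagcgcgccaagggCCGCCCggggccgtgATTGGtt
Abcb9: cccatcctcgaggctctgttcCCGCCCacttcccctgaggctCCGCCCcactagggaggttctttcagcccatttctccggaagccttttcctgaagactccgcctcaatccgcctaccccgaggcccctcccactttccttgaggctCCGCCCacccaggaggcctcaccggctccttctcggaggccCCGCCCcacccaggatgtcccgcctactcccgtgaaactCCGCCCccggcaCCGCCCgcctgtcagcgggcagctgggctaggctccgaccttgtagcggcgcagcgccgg

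The start of Abcg5 and the Abcg8 start picked here lie 110 bases apart, and the windows share 209 bases, read in opposite directions. The same letters therefore give both genes their TATAAA match (chr17:84683090-84683095), their GATAAG match (chr17:84683057-84683062) and a CCAAT match (chr17:84683007-84683011). Abcg8 holds a further CCAAT match outside the shared stretch. The Abcb9 window holds 6 GC boxes and 68.7% G or C, the Abcf2 window 2 GC boxes, 1 CCAAT and 56.3% G or C. The Abcb1a window holds none of these letters and 40.3% G or C, where the median of all windows is 52.7%. Of the 45 genes, 33 had an entry in the table, with 40 windows. The TATA box occurred in 7 of these windows, the GATA motif in 5, CCAAT in 14 and the GC box in 20. Matches in the stretch shared by Abcg5 and Abcg8 count for both genes. Of all 32851 windows in the table, 4473 held the TATA box, 7.44% the GATA motif, 37.4% CCAAT and 35.7% the GC box. A strict direct repeat for liver X receptors, AGGTCA on both sides of 4 free bases, was in none of the member windows and in 0.0152% of all. These are matches of letters, and no binding was measured.

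Levels of different genes were compared as FPKM, which divides by gene length. In AOS0, 18 members averaged above 10 FPKM, 7 lay between 1 and 10, and 20 were under 1. Abcg5, which with Abcg8 forms the pump that sends plant sterols and cholesterol back to the lumen, was highest at 78.8 ± 1.02 FPKM (SD, n = 3), above 92.6% of all genes in the table. Abcd3, which carries fatty acids into peroxisomes, followed at 69.9 ± 4.64. Abcg2, the breast cancer resistance protein of the lumen-facing membrane, had 66.6 ± 1.70, and Abcf1, a translation factor, 58.8 ± 2.85. The Abcg5 libraries lay above every Abcd3 library, and Abcg2 above Abcf1, while Abcd3 and Abcg2 overlapped. Abcc3, which exports glucuronides to the blood side, averaged 47.0 but with an SD of 14.4, so that it overlapped both Abcf1 and the mitochondrial Abcb8 (36.4 ± 2.14). Abcb8 overlapped Abcg8 (35.7 ± 1.32), which overlapped Abcf2 (32.1 ± 2.39). Abce1 (24.4 ± 1.87) lay below every Abcf2 library.

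The middle of the order was close. Abcb10, Abcf3, Abca3, Abcb1a and Abcb6 ran from 18.6 down to 16.75 FPKM with every neighbour overlapping. Lower down the steps were mostly larger than the spread: Abcc10 (10.2), Abcc2 (8.11), Abca7 (6.74), Abcc6 (4.95), Abcb9 (4.26) and Abca2 (3.02) did not overlap from one to the next. Abcg1 and Abca1, which load cholesterol and phospholipid onto lipoproteins, had only 0.237 and 0.483 FPKM.

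**Figure D1:**
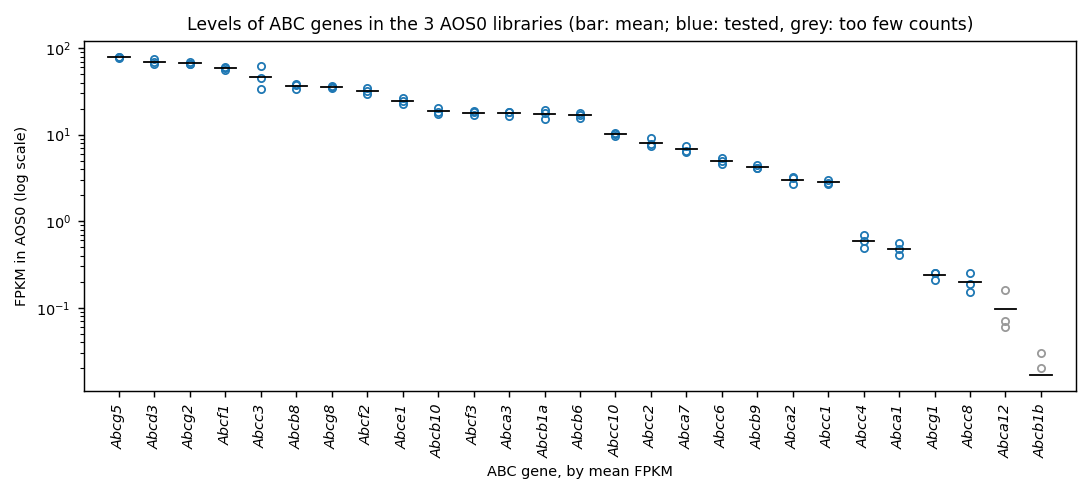
Each circle is the FPKM of 1 AOS0 library (log axis), for the ABC genes named in the text, ordered along the x axis by their mean (bar); blue genes were tested and grey ones had too few counts. Levels run from 78.8 FPKM for Abcg5 down to values under 0.1; circles at 0 and genes with a mean of 0 in AOS0 cannot be drawn on a log axis.

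The filter on low counts left 29 members for testing: 4 of 13 in subfamily A, 6 of 9 in B, 8 of 9 in C, 3 of 4 in D, the 1 in E, all 3 in F and 4 of 6 in G. The other 16 had 1 to 61 counts over all 12 libraries and never exceeded 0.200 FPKM. They include Abcb11, the bile salt export pump of liver (2 counts), Abcb4, a phosphatidylcholine transporter of liver (3 counts), Abca4 of the retina (6 counts) and Abca12 of skin (53 counts). All 7 genes of a list of remaining subfamily A members were also among them. Abcb1a and Abcb1b are close copies next to Abcb4 on chromosome 5, and both encode P-glycoprotein in mice. Abcb1a (chr5:8567091-8748575) had up to 19.4 FPKM, Abcb1b (chr5:8798147-8866314) at most 0.0600 and 19 counts in all. Reads that fit both may have been split between them: each had counts that were not whole numbers in 9 libraries.

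After busulfan alone, the drug and organic anion pumps Abcb1a and Abcc6 fell and the translation-linked Abcf2 rose. Of the 29 tested members 2 were lower and 1 higher in B+A0 than in AOS0 (edgeR quasi-likelihood test, Benjamini-Hochberg adjusted p under 0.05). Of all 12329 tested genes 3.64% were called, 1.94% lower and 1.70% higher. On the log2 scale 18 of the 29 lay below 0, with a median of -0.09 against -0.01 over all tested genes. The FPKM of the groups did not overlap for 8 members that were lower in B+A0 (Abcb1a, Abcc2, Abcc6, Abcc10, Abcg1, Abcg2, Abcg5, Abcg8) and 4 that were higher (Abcb8, Abcb9, Abcf2, Abcf3), where 17.2% of all tested genes were lower and 9.68% higher without overlap. In RNA from mixed cells, fewer cells of a type and less RNA per cell cannot be told apart.

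Abcc6 (chromosome 7, 45974110 to 46030491), an organic anion transporter whose loss causes ectopic calcification, had 4.55, 5.32 and 4.97 FPKM in AOS0. It had 6.02, 5.63 and 4.99 in AOS10, 2.82, 2.03 and 2.59 in B+A0, and 3.60, 4.53 and 3.10 in B+A10. All B+A0 libraries lay below all AOS0 and all B+A10 libraries. Abcc6 fell by 0.97 on the log2 scale (SE 0.173, 1.96-fold lower, adjusted p = 0.0173, edgeR) from AOS0 to B+A0.

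Abcb1a (P-glycoprotein), the best known efflux pump for drugs, had 17.7, 19.4 and 15.3 FPKM in AOS0 and 16.3, 14.0 and 17.3 in AOS10. It had 10.02, 12.9 and 7.57 in B+A0 and 12.01, 14.8 and 15.0 in B+A10. Every B+A0 library was below every library without busulfan. The fall from AOS0 to B+A0 was 1.68-fold (log2 difference -0.75, SE 0.157, adjusted p = 0.0282, edgeR). In the annotation of GENCODE, 553 exonic bases of Abcb1a (10.1%) are also exonic in Gm42686 on the opposite strand, and without a stated strand setting such reads cannot be told apart. T cells and natural killer cells, which also use P-glycoprotein, gave less signal in the same libraries: 8 markers summed to 159 to 273 CPM in AOS0 and 37.8 to 102 in B+A0. All 8 were lower in B+A0 without overlap, and 6 of them were called. All 5 mast cell markers were called lower too (65.7 to 147 CPM summed in AOS0, 22.9 to 26.4 in B+A0). The part of either in the Abcb1a and Abcc6 results was not tested. In B+A0 replicate 1, Abcb1a had 10.02 and Abcc6 2.82 FPKM, below every AOS0 library, as were Abcg5, Abcg8 and Abcg2.

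Abcf2 (chromosome 5, 24565341 to 24577467), an ATP-binding protein without a membrane part, had 34.3, 32.3 and 29.6 FPKM in AOS0 and 34.0, 34.0 and 32.7 in AOS10. With busulfan it had 37.0, 42.6 and 45.7 in B+A0 and 39.9, 34.8 and 36.7 in B+A10. Both busulfan groups lay above both groups without it. Abcf2 rose 1.34-fold in B+A0 against AOS0 (log2 difference 0.42, SE 0.0864, adjusted p = 0.0266, edgeR).

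These 3 calls depended on single libraries. Leaving out any one AOS0 library took Abcb1a (adjusted p from 0.0690 to 0.0891, edgeR) and Abcf2 (0.0560 to 0.0965) past 0.05. Leaving out B+A0 replicate 3 gave 0.123 for Abcb1a, 0.114 for Abcf2 and 0.0756 for Abcc6 (edgeR). Abcc6 also missed without AOS0 replicate 1 (0.0581) or 3 (0.0593) and without B+A0 replicate 2 (0.0531), and Abcf2 missed without B+A0 replicate 2 (0.0687, edgeR). A fit to these groups alone kept only Abcc6 (0.0282, against 0.0624 for Abcb1a and 0.0559 for Abcf2, edgeR).

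**Figure D2:**
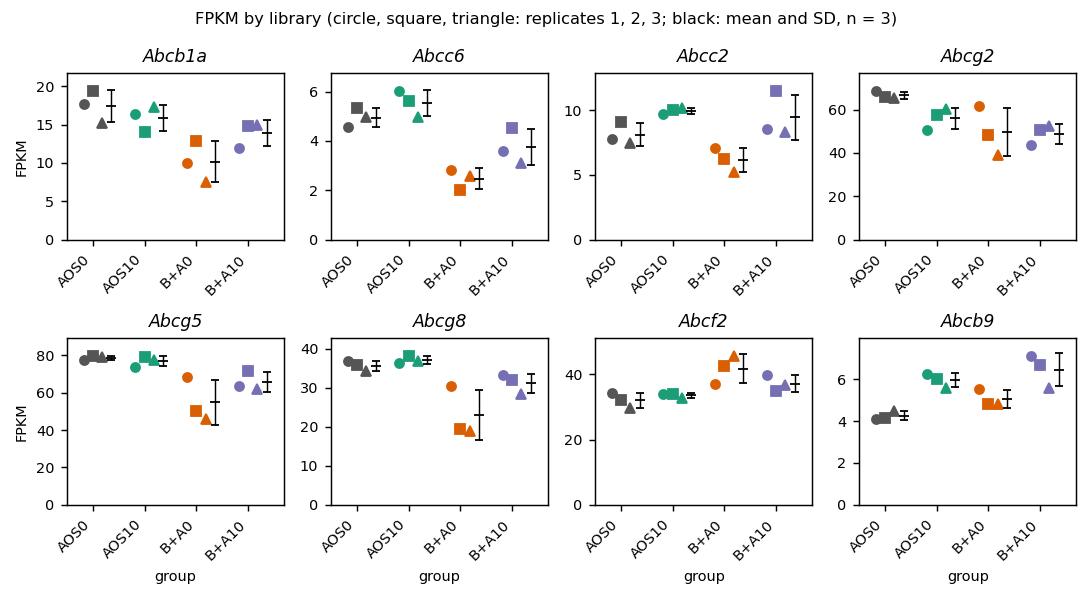
FPKM (y axis, from 0) of 8 ABC genes in each library by group (x axis), with circle, square and triangle for replicates 1, 2 and 3 and the mean and SD (n = 3) in black. Abcb1a and Abcc6 are lower in all B+A0 libraries than in all AOS0 libraries, Abcf2 is higher, and B+A0 replicate 1 (orange circle) lies nearest to AOS0 for Abcg2, Abcg5 and Abcg8.

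The sterol pair and Abcg2 did not pass the test. Abcg5 had 77.7, 79.7 and 79.0 FPKM in AOS0, 74.0, 79.3 and 77.7 in AOS10, 68.2, 50.4 and 45.8 in B+A0, and 63.6, 71.7 and 62.0 in B+A10. Abcg8 had 36.8, 35.9 and 34.2, then 36.3, 38.2 and 36.8, then 30.6, 19.5 and 19.0, and 33.2, 31.9 and 28.3 FPKM in the same order of groups. For both genes all 6 busulfan libraries lay below all 6 others, and B+A0 replicates 2 and 3 were lowest. The log2 differences of B+A0 from AOS0 were -0.48 (SE 0.133, adjusted p = 0.0641, edgeR) and -0.59 (SE 0.158, adjusted p = 0.0600). DESeq2 called both (adjusted p 0.0164 and 0.0108), but it also called 8.32% of all genes. So did limma on log2(FPKM + 1) (0.0334 for each), which called 3.69%. Without B+A0 replicate 1 edgeR called both, at -0.68 (adjusted p = 0.00619) and -0.86 (adjusted p = 0.00211), among 8.79% of all genes.

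The proportion of the 2 genes was read from the same values. The FPKM of Abcg5 over that of Abcg8 was 2.11, 2.22 and 2.31 in AOS0, 2.04, 2.08 and 2.11 in AOS10, 2.23, 2.58 and 2.41 in B+A0, and 1.92, 2.25 and 2.19 in B+A10. The ratio in AOS0 overlapped that in each other group, while every B+A0 library lay above every AOS10 library. Because 82 exonic bases of the genes overlap on opposite strands (3.02% of Abcg5, 2.19% of Abcg8), a small share of reads may be counted for either. Abcg5 ranked 1 among the 45 genes by mean FPKM in AOS0, AOS10 and B+A10, and 3 in B+A0, where Abcf1 ranked 1.

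Abcg2 had 68.5, 65.9 and 65.4 FPKM in AOS0, 50.6, 57.4 and 60.0 in AOS10, 61.5, 48.3 and 39.1 in B+A0, and 43.5, 50.4 and 52.5 in B+A10. Here the AOS0 libraries were above those of every other group, with or without busulfan. No difference from AOS0 passed: -0.38 for B+A0 (adjusted p = 0.133, edgeR), -0.21 for AOS10 (adjusted p = 0.806) and -0.40 for B+A10 (adjusted p = 0.176). Without B+A0 replicate 1 the first became -0.58 (adjusted p = 0.0135, edgeR), a setting that called 8.79% of all genes. In the same libraries markers of proximal small intestine summed to 1437, 701 and 996 CPM in B+A0 replicates 1, 2 and 3 (1331 to 1565 in AOS0), and markers of distal small intestine to 1621, 981 and 779 CPM (1268 to 1528 in AOS0). Within B+A0, replicate 1 had the highest of these marker sums and the highest Abcg5, Abcg8 and Abcg2. Its enterocyte markers summed higher than in any AOS0 library, but singly they differed. Vil1, Alpi, Apoa1, Fabp2 and Anpep lay above every AOS0 library, Sis, Lct, Apoa4 and Fabp1 within the AOS0 range, and Epcam below it. In this library Abcg5, Abcg8 and Abcg2 also lay below every AOS0 library. The part of enterocyte content in these 3 genes was not tested.

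By role, the 12 drug and organic anion pumps had 9 tested members, of which Abcb1a and Abcc6 were called lower and none higher in B+A0 against AOS0. In 8 of the 9 the log2 difference was below 0, and the median was -0.35, where 51.2% of all tested genes lay below 0. The 10 enterocyte markers gave 9 below 0 and the same median of -0.35, and none of them was called. Their part in the result was not tested. Abcc2, an efflux pump for conjugates on the lumen side, had 7.76, 9.09 and 7.48 FPKM in AOS0 and 7.09, 6.20 and 5.24 in B+A0 (-0.35, adjusted p = 0.180, edgeR), without overlap. Abcc3 had 33.9, 44.7 and 62.4 in AOS0 and 35.6, 35.6 and 30.8 in B+A0, which overlapped (-0.44, adjusted p = 0.375, edgeR). Abcc1, a widely expressed glutathione-conjugate pump, was the exception with 2.98, 2.69 and 2.74 against 2.62, 3.25 and 3.61 FPKM (0.22, adjusted p = 0.389, edgeR). Summed over the 12 genes the FPKM was 147 to 170 in AOS0, 155 to 167 in AOS10, 98.5 to 131 in B+A0 and 120 to 150 in B+A10. The sum is carried by Abcg2 and Abcc3, the most abundant of the group.

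The 11 sterol and phospholipid transporters had 7 tested members and none was called. Of these, 5 lay below 0, with a median of -0.13. Their summed FPKM, mostly Abcg5 and Abcg8, was 142 to 144 in AOS0 and 127, 96.2 and 92.1 in B+A0 replicates 1, 2 and 3. Abca3, a phospholipid transporter of lamellar bodies, gave 16.6, 18.1 and 18.3 FPKM against 17.2, 17.3 and 17.7 (0.02, adjusted p = 0.917, edgeR). Abcg1 was at 0.210, 0.250 and 0.250 against 0.190, 0.0900 and 0.110 FPKM, with too few counts (186 in all) for a close estimate (-0.79, adjusted p = 0.341, edgeR).

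The 4 genes without a membrane domain all lay above 0, with a median of 0.23, and Abcf2 was the 1 called. Abcf3, which takes part in translation control, had 17.0, 18.7 and 18.3 FPKM in AOS0, 19.4, 19.6 and 20.0 in AOS10, 21.8, 21.5 and 21.3 in B+A0, and 21.4, 18.4 and 20.4 in B+A10. Its B+A0 libraries were above all AOS0 libraries (0.29, SE 0.0760, adjusted p = 0.0525, edgeR). DESeq2 called Abcf3, among 8.32% of all genes. Abcf1 had 61.2, 59.7 and 55.7 in AOS0 and 60.1, 66.8 and 65.2 in B+A0, with overlap (0.16, adjusted p = 0.195, edgeR). Abce1, which splits ribosomes for recycling, had 26.3, 24.5 and 22.5 against 22.1, 30.0 and 24.6 FPKM (0.11, adjusted p = 0.772, edgeR). Their summed FPKM was 126 to 139 in AOS0 and 141 to 161 in B+A0.

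The mitochondrial members showed small differences. The 4 genes, linked as a group to heme and iron-sulfur cluster supply and potassium balance of the organelle, had a median difference of 0.02 and summed to 80.0 to 85.0 FPKM in AOS0 and 83.8 to 85.3 in B+A0. Abcb8 had 34.0, 38.2 and 37.1 FPKM in AOS0, 36.9, 36.4 and 38.6 in AOS10, 38.8, 39.8 and 41.4 in B+A0, and 38.5, 37.6 and 33.5 in B+A10. Its B+A0 libraries lay above those of AOS0 by a small margin (0.18, adjusted p = 0.254, edgeR). Of the peroxisomal and lysosomal genes 4 were tested and none was called in this comparison. Abcd3 had 69.4, 74.7 and 65.5 FPKM in AOS0, 63.5, 66.5 and 74.3 in AOS10, 69.8, 63.2 and 49.6 in B+A0, and 58.4, 67.0 and 71.7 in B+A10, and all groups overlapped. The potassium channel subunit Abcc8, known from insulin-secreting cells, had at most 0.350 FPKM.

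**Figure D3:**
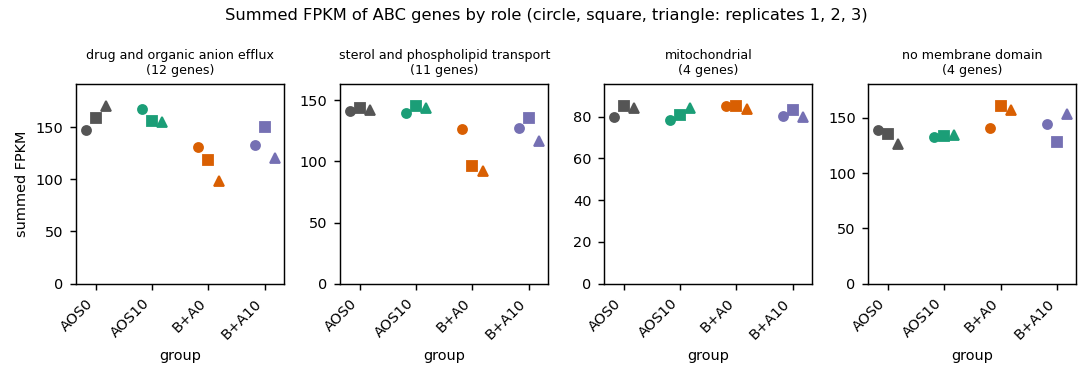
Summed FPKM (y axis, from 0) of the ABC genes of 4 roles in each library, by group, with circle, square and triangle for replicates 1, 2 and 3. The efflux and sterol groups are lower in every B+A0 library than in every AOS0 library, the genes without a membrane domain are higher, and the mitochondrial sums overlap.

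In busulfan-treated tissue, B+A10 was compared with B+A0 to ask whether AOS went with a difference. No member was called (edgeR), as for 0% of all tested genes. At an unadjusted p under 0.05 there were 7 of 29 members, where 9.81% of all tested genes were. DESeq2 called 1 member, Abcc2 (0.617% of all genes), and limma on log2(FPKM + 1) or log2(FPKM + 0.1) called 0 (0% of all genes by either). In 20 of the 29 the log2 difference was above 0, with a median of 0.14 against 0.01 over all tested genes. This comparison shares the B+A0 libraries with the one above, so the values are given side by side and no relation between them was computed.

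Abcc2 had 9.70, 10.03 and 10.2 FPKM in AOS10 and 8.58, 11.5 and 8.31 in B+A10, beside the AOS0 and B+A0 values above. B+A10 lay above B+A0 in every library, and the difference was 0.62 (SE 0.145, adjusted p = 0.255, edgeR; adjusted p = 0.0231, DESeq2). Abcc6 also differed by 0.62 (adjusted p = 0.296, edgeR), again without overlap. Abcb1a differed by 0.46 (adjusted p = 0.383, edgeR), with overlap. The FPKM of the groups did not overlap for 5 members that were higher in B+A10 (Abcc2, Abcc6, Abcb9, Abcc8, Abca2) and for 1 that was lower (Abcb8), where 4.53% of all tested genes were higher and 5.01% lower without overlap. The sterol group had 7 of 7 above 0 (median 0.23) and the efflux group 7 of 9 (median 0.36). The group without a membrane domain had 0 of 4 above 0 (median -0.09). Of all tested genes 48.2% lay below 0. The 10 enterocyte markers gave 10 of 10 above 0 (median 0.345), and none was called (edgeR). Abcg5 differed by 0.27 (adjusted p = 0.541, edgeR) and Abcg8 by 0.44 (adjusted p = 0.404). Without B+A0 replicate 1 edgeR called Abcg8, among 0.360% of all genes. Enterocyte markers summed to 19091, 22712 and 14301 CPM in B+A10 and T and NK markers to 93.6, 260 and 130, and their part in these values was not tested.

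The difference between the effects of AOS with and without busulfan was tested as an interaction. No member was called (edgeR), and 0% of all tested genes were. At an unadjusted p under 0.05 there were 3 of 29 members (6.85% of all genes): Abcb1a at 0.57 (SE 0.221, adjusted p = 0.670, edgeR), Abcf3 at -0.26 and Abcf2 at -0.27. The 8 T and NK cell markers all had an interaction above 0 with an unadjusted p under 0.05 (median 1.69), none was called, and their part in the Abcb1a value was not tested. DESeq2 and both limma fits also called 0 members, with 0.141% of all genes called by DESeq2 and 0% by either limma fit.

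**Figure D4:**
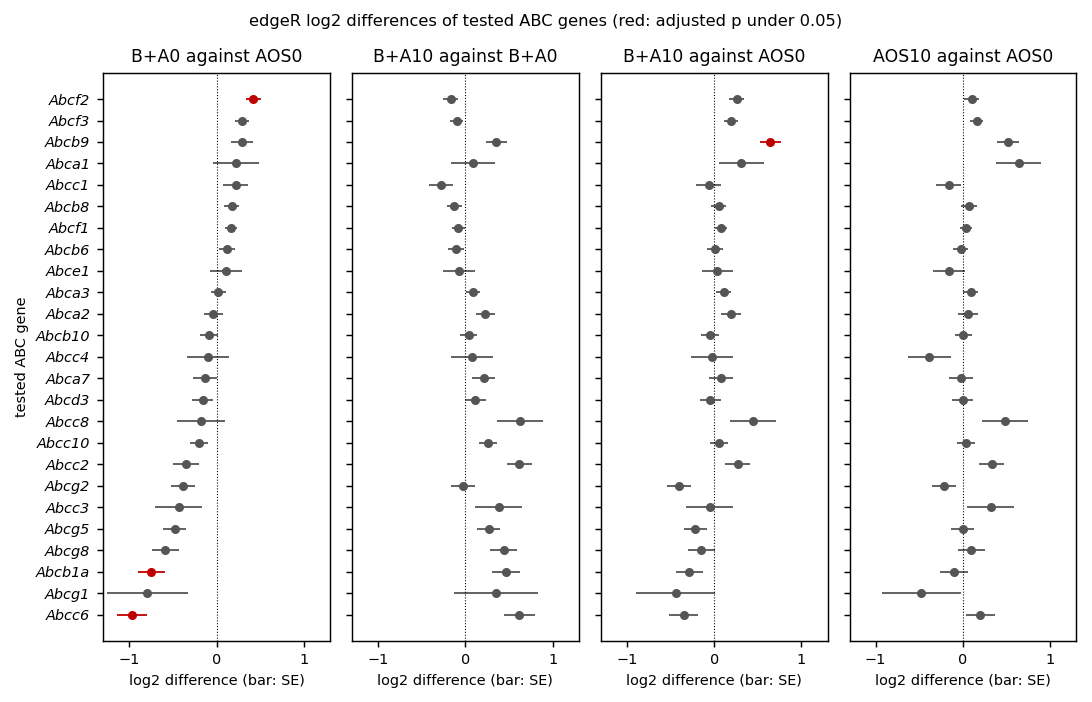
Log2 differences (x axis) with their SE from edgeR for the tested ABC genes named in the text (y axis, in the order of the first panel) in 4 comparisons, with adjusted p under 0.05 in red. Abcf2, Abcb1a and Abcc6 are called in B+A0 against AOS0 and Abcb9 in B+A10 against AOS0; the panels share libraries, so they are not independent of each other.

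Without busulfan, AOS10 was compared with AOS0. Again no member was called by edgeR, DESeq2 or limma. Of all tested genes 0% were called by edgeR, 0.511% by DESeq2 and 0% by either limma fit. At an unadjusted p under 0.05 there were 4 of 29 members (6.23% of all genes), among them Abcb9, Abca1 and Abcc2. The log2 differences of these 3 were 0.52 (adjusted p = 0.269, edgeR), 0.64 (0.766) and 0.33 (0.798). The groups did not overlap for 5 members that were higher in AOS10, Abcf3 among them, nor for Abcc1, Abcg1 and Abcg2, which were lower, where 7.71% of all tested genes were higher and 12.7% lower without overlap. A fit of AOS10 and AOS0 alone called 1 member, where it called 0.512% of all genes.

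Abca1, the exporter of cholesterol to nascent high-density lipoprotein, had 0.560, 0.480 and 0.410 FPKM in AOS0, 0.670, 0.850 and 0.690 in AOS10, 0.730, 0.510 and 0.410 in B+A0, and 0.810, 0.470 and 0.460 in B+A10. Only AOS10 was free of overlap with AOS0. Abcc4, a pump for cyclic nucleotides and drugs, had 0.490, 0.590 and 0.690, 0.500, 0.390 and 0.420, 0.380, 0.560 and 0.670, and 0.580, 0.530 and 0.560 FPKM in the same order of groups. Abcc3 had 70.5, 54.8 and 47.3 in AOS10 and 49.9, 55.2 and 26.8 in B+A10.

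Abcb9 was the 1 member called between B+A10 and AOS0, the groups that differ in both treatments, where 0.957% of all tested genes were called. Abcb9 (chromosome 5, 124061857 to 124095955) moves peptides into lysosomes. It had 4.12, 4.16 and 4.50 FPKM in AOS0, 6.27, 6.0 and 5.59 in AOS10, 5.54, 4.80 and 4.81 in B+A0, and 7.12, 6.69 and 5.58 in B+A10. AOS0 lay below every other group. Abcb9 rose 1.56-fold in B+A10 against AOS0 (log2 difference 0.65, SE 0.124, adjusted p = 0.0305, edgeR). The difference was 0.29 for busulfan alone (adjusted p = 0.193, edgeR) and 0.52 for AOS alone (adjusted p = 0.269), both against the same AOS0 libraries. The call was lost without any 1 AOS0 library (0.0811 to 0.128, edgeR), without B+A10 replicate 1 (0.144) or 2 (0.0534), and in a fit of these groups alone (0.138). Of its exonic bases 162 (2.89%) overlap Gm34086 on the opposite strand. The FPKM of B+A10 and AOS0 did not overlap for 2 members that were higher, Abcb9 and Abcf2, and 5 that were lower, Abcb1a, Abcc6, Abcg2, Abcg5 and Abcg8. Of all tested genes 6.68% were higher and 11.3% lower without overlap.

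Abce1 had 19.8, 22.6 and 21.8 FPKM in AOS10 and 19.4, 18.9 and 34.9 in B+A10, so that 1 library held the highest value of all 12. Abcf1 had 59.1, 57.6 and 60.1 in AOS10 and 63.6, 56.3 and 61.5 in B+A10. Both genes overlapped their AOS0 values in both groups. Between B+A10 and AOS10 no member was called (edgeR), where 0.162% of all tested genes were. Abcc6 was the 1 member with an unadjusted p under 0.05 (10.2% of all genes), at -0.55 (adjusted p = 0.275, edgeR). DESeq2 called 0 members, where it called 1.21% of all genes. Limma on log2(FPKM + 1) and on log2(FPKM + 0.1) also called 0, with 0.0162% and 0.0568% of all genes. The groups did not overlap for Abcc6, Abcg5 and Abcg8 (lower) and Abcf2 and Abcc4 (higher), where 8.13% and 6.62% of all tested genes were.

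The spread between replicates is given as the coefficient of variation. Over the tested members its median for FPKM was 7.45% in AOS0 and 6.88% in AOS10, against 11.8% in B+A0 and 11.0% in B+A10. The difference in spread was not tested.

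Of the ABC proteins under other symbols, none of the 3 was called in any of the 6 comparisons (edgeR). Cftr, the chloride channel, averaged 22.2 FPKM in AOS0 and 18.9 in B+A0 (-0.20, adjusted p = 0.501, edgeR). The antigen peptide transporters Tap1 and Tap2 averaged 76.1 and 57.4 FPKM in AOS0, 99.4 and 75.5 in AOS10, 72.2 and 61.2 in B+A0, and 67.1 and 66.5 in B+A10. For AOS10 against AOS0 their differences were 0.42 (adjusted p = 0.654, edgeR) and 0.43 (adjusted p = 0.668).

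Genes that act on or with the transporters were read from lists. The 13 nuclear receptors and partner factors had a median log2 difference of 0.04 in B+A0 against AOS0. The transcripts of the liver X receptor Nr1h3 (34.3 and 33.6 FPKM on average in AOS0 and B+A0) and the pregnane X receptor Nr1i2 (45.6 and 42.2) differed by 0.02 (adjusted p = 0.948, edgeR) and -0.08 (adjusted p = 0.731).

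Among 10 response genes of the pregnane X and constitutive androstane receptors, 1 was called lower in B+A0 against AOS0 and none higher, with a median of -0.39. Cyp3a25, a drug-oxidising cytochrome, fell from 35.1, 58.0 and 35.4 FPKM to 17.5, 14.9 and 10.04 (-1.55, adjusted p = 0.00685, edgeR). Cyp3a11, its close relative, had 22.1, 66.6 and 22.9 against 16.7, 11.7 and 5.81 (-1.67, adjusted p = 0.0701, edgeR). Both are members of a multigene family, so reads may be split among copies. B+A10 against B+A0 gave 9 of the 10 above 0 with a median of 0.57, where 48.2% of all tested genes lay below 0, and none was called.

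Of 16 liver X receptor and sterol handling genes none was called in B+A0 against AOS0 (edgeR), and 13 lay below 0 with a median of -0.15. Npc1l1, which takes cholesterol up from the lumen opposite to Abcg5 and Abcg8, had 153, 149 and 152 FPKM in AOS0 and 174, 112 and 119 in B+A0 (-0.12, adjusted p = 0.733, edgeR). The FPKM of Abcg5 over that of Npc1l1 was 0.508, 0.537 and 0.519 in AOS0 and 0.393, 0.449 and 0.384 in B+A0, without overlap. It was 0.425, 0.470 and 0.488 in AOS10, also below AOS0, and 0.389, 0.420 and 0.520 in B+A10. None of 6 bile acid transport partners was called in B+A0 against AOS0 (edgeR), with a median of -0.14.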

How the data were processed

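The RNA-seq values of the 12 libraries came from 1 deposited table with 16942 genes. Per the submitters' processing notes the build was mm10. No aligner, counter, annotation or strand setting is given in the sources used here. The authors deposited expected counts (read counts per the file headers) without normalization. Between 8.90% and 9.33% of them were not whole (tolerance 1e-06), and all were rounded. The other deposited values have no unit in the header and were read as FPKM, because in 5071 genes above 500 counts the quotient of count and value tracked library totals within 0.151%. The authors' 8 columns of group averages were not used.

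Genes were filtered with filterByExpr by group (12329 kept), TMM factors ran from 0.969 to 1.05, and a single quasi-likelihood model took in all 12 libraries with edgeR 4.0.16 (R 4.3.3), with 8 residual degrees of freedom and Benjamini-Hochberg adjustment over all tested genes at 0.05. SE is the size of the log2 difference, refitted without a prior count, over the root of F. The printed log2 differences keep edgeR's default prior count, which shrinks them slightly. FPKM are as deposited; tests and CPM are scaled by TMM. Overlap of groups was read from FPKM. The depths above set the counting precision. Chi-square values of replicate pairs, per degree of freedom, were 8.28 to 35.4, so none was a repeated library. The fit was tested on simulated data with known changes. Alternatives were DESeq2 1.42.0, DESeq2 size factors, no and a stricter filter, fits restricted to the groups compared, a replicate block, omission of each library in turn, and limma 3.58.1 on log2(FPKM + 1) and log2(FPKM + 0.1). Values are printed for Abcb1a, Abcg2, Abcg5, Abcg8, members called, the 5 smallest p per comparison, the 10 highest in AOS0, examples of roles, called partners and fixed partners (Npc1l1, Nr1h3, Nr1i2, Cyp3a11, Cftr, Tap1, Tap2). Some genes that this rule names are not reported here. Members and lists were chosen with earlier results of these data known. Gene positions are RefSeq GRCm38.p6, matched by gene ID for all 45; of 49 genes in the role lists 4 were not analysed here. Figures used matplotlib 3.10.9.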

Additional observations from a re-analysis of the deposited data

How the results depend on the processing

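Counts of members called depended on the setting. For B+A0 against AOS0 (3 by edgeR), DESeq2 called 6, limma on log2(FPKM + 1) and on log2(FPKM + 0.1) called 5 each, a fit of the compared groups only called 1, and leaving out 1 library gave 0 to 6. The share of all tested genes called moved with the setting too: 3.64% by edgeR, 8.32% by DESeq2, 3.69% and 3.91% by limma, 1.99% with the compared groups only, and 0.168% to 8.79% with 1 library left out. The 6 members came without B+A0 replicate 1, and 0 came when either replicate 1 or 3 of AOS0 or replicate 3 of B+A0 was left out. For B+A10 against B+A0 (0 by edgeR), DESeq2 called 1 (0.617% of all genes). Leaving out 1 library gave 0 to 1 there, with 0% to 0.408% of all genes. For AOS10 against AOS0 (0), the compared groups only gave 1 (0.512% of all genes). For B+A10 against AOS0 (1), the compared groups only gave 0 (0.148% of all genes). Leaving out 1 library gave 0 to 1 there, with 0.0963% to 6.10% of all genes. The cause was not tested.

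A replicate block gave 2 members for B+A0 against AOS0 (Abcf2 at adjusted p = 0.0549, edgeR) and 0 for B+A10 against AOS0 (Abcb9 at adjusted p = 0.0543). Under the block the shares of all tested genes were 1.57% and 0.673%. The labels say nothing of pairing: libraries with the same number had correlations of their deviations of -0.162 to 0.173, and those with different numbers of -0.237 to 0.334.

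Of 684 alternative values of 46 results on single members, none changed direction among called values, 647 kept their side of the threshold, 14 gained and 23 lost a call. With 3 libraries a group, small differences in weakly expressed members (Abcg1, Abcc8, Abcc4, Abca1) could not be resolved.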
